A study of Mus musculus with 18 samples.

Results

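The effect of the shCdk8-2 hairpin on gene expression was measured by RNA-seq in 6 of the 18 libraries of the series, 3 of shCdk8-2 cells and 3 of control (cntrl) cells, all from cells kept in DMSO. The libraries were chosen by their labels, and every gene that passed a filter on low counts was compared, 12590 of the 50686 genes listed. E0771 is a mouse mammary tumor line used as a model of triple-negative breast cancer. Both groups came from E0771 cells that had been given a firefly luciferase reporter by lentivirus and selected with puromycin. They were then transduced with a retroviral vector that carries mCherry and a short hairpin RNA (shRNA), and sorted for mCherry. In shCdk8-2 cells the hairpin targets Cdk8, and in cntrl cells it targets Renilla luciferase, which mouse cells lack. Both groups were kept for 48 h in DMSO, the solvent of the CDK8 and CDK19 inhibitor Senexin B (SnxB). The other 12 libraries are those of a second knockdown line (shCdk8-1) in DMSO and of the cntrl, shCdk8-1 and shCdk8-2 lines in 1 µM SnxB. Each hairpin was carried by 1 sorted cell population, so the knockdown and any other difference between the populations cannot be told apart. Whether the 3 libraries of a group came from separate cultures is not given in the sources used here, so the p-values measure the spread between these libraries, which may be technical.

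CDK8 is a cyclin-dependent kinase that, with cyclin C, MED12 and MED13, forms the kinase module of the Mediator complex. Mediator links transcription factors at enhancers to RNA polymerase II, and the kinase module binds it reversibly and can act as an activator or a repressor of transcription. CDK8 phosphorylates transcription factors, and its paralog CDK19 can take its place in the module. In mammary tumors CDK8 has been studied for its part in invasion, in interferon signaling and in the recognition of tumor cells by natural killer (NK) cells.

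The 6 libraries held 16452260 to 22664693 counts. Levels are given as CPM, counts scaled to library size by TMM, and 3 counts in a library, the floor used below, were 0.132 to 0.182 CPM. The share of counts from mitochondrial genes was 1.20% ± 0.228 (SD, n = 3) in cntrl and 1.31% ± 0.0744 (SD, n = 3) in shCdk8-2 libraries (exact permutation test, two-sided, p = 0.6, and 0.1 is the smallest p that 3 against 3 libraries allow). No pair of libraries held identical counts. Log2 CPM correlated at 0.995 to 0.996 within a group and at 0.957 to 0.960 between cntrl and shCdk8-2 libraries, across the 12590 genes (Pearson, a description, since genes are not independent).

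The line held the mesenchymal marker Vim at a high level. Vim was at 4420, 4339 and 4476 CPM in cntrl and 4090, 4229 and 4115 CPM in shCdk8-2 libraries, while the epithelial markers Epcam, Krt18 and Cdh1 had at most 2, 1 and 10 counts in any of the 6 libraries. The epithelial keratin gene Krt8 had 1 count in each cntrl library and 279, 261 and 249 counts in the shCdk8-2 libraries. Of 18 leukocyte markers 4 had no count in any library and 12, these included, had at most 3, and their summed level was 8.37 to 9.20 CPM in cntrl and 6.48 to 6.90 CPM in shCdk8-2 libraries. The leukocyte marker Ptprc (CD45) had 7, 3 and 5 counts in cntrl and none in shCdk8-2 libraries, and the macrophage receptor gene Csf1r had 8, 5 and 9 counts and 1, 2 and 2. Of the myeloid genes in this list, Lyz2 (lysozyme) had 66, 82 and 99 counts in cntrl and 58, 34 and 30 in shCdk8-2 libraries and was called lower (-1.17, adjusted p = 2.8e-04). Cd14 went from 20, 13 and 19 to 46, 43 and 28 counts and was called higher (1.01, adjusted p = 0.00169), and Cd68, with 43 to 60 counts in each library, did not pass (-0.03, adjusted p = 0.902). Of the receptors that define the triple-negative type, Pgr had no count, Erbb2 was at 54.0, 56.3 and 55.0 CPM in cntrl and 45.3, 48.3 and 47.0 CPM in shCdk8-2 libraries, and Esr1, the estrogen receptor gene, differed between the lines. Esr1 was at 23.6, 21.4 and 24.0 CPM in cntrl and 1.16, 1.01 and 0.652 CPM in shCdk8-2 libraries, a log2 fold change of -4.57 (SE 0.16, adjusted p = 1.8e-12). The cntrl line therefore held Esr1 mRNA in every library. The summed level of 6 endothelial markers was 5.80 to 6.44 CPM in cntrl and 7.50 to 8.79 CPM in shCdk8-2 libraries, with Pecam1 going from 0.184, 0.378 and 0.293 CPM to 6.04, 5.77 and 5.60 CPM and Cdh5 going from 4.72, 4.10 and 4.14 CPM to 0.560, 0.557 and 0.652 CPM. That of 9 fibroblast and smooth muscle markers was 688 to 698 CPM and 620 to 661 CPM. A part of other cells in the results below was not tested.

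Log2 fold changes below are of shCdk8-2 against cntrl, from edgeR's quasi-likelihood test with Benjamini-Hochberg adjustment over all genes tested, with standard errors (SE) derived from its F statistic. Rose, fell and changed are used of genes with an adjusted p under 0.05, and called is used of those that also changed by more than 2-fold. A value that stands alone beside a gene is its log2 fold change.

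The knockdown was checked first, at the level of mRNA. By immunoblot the study saw less CDK8 protein with each hairpin, to a varying extent, and these data do not measure protein. Cdk8 (ENSMUSG00000029635.15, chromosome 5 from 146231230 to 146302874, plus strand of GRCm38) was at 58.3, 54.5 and 54.8 CPM in the cntrl libraries and 38.1, 38.6 and 38.9 CPM in the shCdk8-2 libraries. All shCdk8-2 libraries lay below all cntrl libraries, and the log2 fold change was -0.54 (SE 0.06, adjusted p = 1.6e-06), which is less than 2-fold, so Cdk8 itself was not called. The shCdk8-1 libraries held 22.02, 18.6 and 23.3 CPM, and Cdk8 was 0.85 higher on the log2 scale in shCdk8-2 than in shCdk8-1 cells (adjusted p = 3.1e-07).

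Other kinase module genes moved by less. Cdk19, the paralog, rose from 93.6, 93.2 and 93.0 CPM to 103, 100.1 and 101 CPM (log2 fold change 0.12, SE 0.04, adjusted p = 0.00989), with no overlap between the groups. Ccnc, which encodes cyclin C, gave -0.12 (adjusted p = 0.0163) and Med13l 0.13 (adjusted p = 0.0387), and both lost significance when single libraries were left out, Ccnc without cntrl library 2 or 3 or shCdk8-2 library 1 or 2 (-0.11 to -0.09) and Med13l without cntrl library 2 or 3 or shCdk8-2 library 2 or 3 (0.12 to 0.14). Ccnc also lost it with library totals in place of TMM and with no filter (adjusted p = 0.116 and 0.0588), and Med13l with all 18 libraries (adjusted p = 0.0915). Med12 and Med13 did not pass (-0.12, adjusted p = 0.33, and -0.20, adjusted p = 0.0763), although both passed when only the groups compared were fitted (adjusted p = 0.022 and 1.95e-04) and with no filter (adjusted p = 0.0239 and 3.6e-05). Med12l had at most 12 counts in a library and was not tested.

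Across the genome 1364 of 12590 genes were called (10.8%), 598 higher (4.75%) and 766 lower (6.08%). With the adjusted p alone, 3612 genes rose (28.7%) and 3710 fell (29.5%), and the median log2 fold change of all genes was 0.00. Most changes were small, since the median size among the genes past the adjusted p was 0.38 on the log2 scale, but 93 called genes were more than 16-fold higher and 60 more than 16-fold lower by the fitted values. Among the called genes 120 had at most 3 counts in each cntrl library and 61 at most 3 counts in each shCdk8-2 library. All 3 cntrl libraries were at 0 for 23 of the genes called higher, and all 3 shCdk8-2 libraries were at 0 for 8 of the genes called lower. The groups did not overlap in 1341 of the 1364 called genes, and in 8234 (65.4%) of all genes tested. Many genes named below were picked for a low p or a large change, so a lack of overlap in them adds no support. By type of gene, 10.9% of 11331 protein-coding genes, 21.6% of 236 lincRNA genes and 2.81% of 392 processed pseudogenes were called.

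Several of the genes with the largest rise had nearly no reads in cntrl cells. Nr5a1, which encodes the steroidogenic factor SF-1, had no count in the cntrl libraries and 11.3, 14.3 and 12.99 CPM in the shCdk8-2 libraries, and was at least 78.4-fold higher against the floor of 3 counts per library. Dab1, an adaptor of reelin signaling, was also at 0 in cntrl and at 2.72, 3.04 and 2.17 CPM in shCdk8-2 libraries (at least 16.1-fold higher). Cfap97d2 and Hhipl1 were at 0 in cntrl cells too, and were at least 24.9-fold and at least 12.4-fold higher. Between cntrl and shCdk8-2 cells, these 4 genes thus had counts in the shCdk8-2 libraries alone. Of Dab1 the shCdk8-1 libraries had no count either, while Nr5a1 was at 7.37, 8.10 and 7.92 CPM in them.

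Other genes had 1 to 3 counts over the whole cntrl group, and for these the ratio of CPM (shCdk8-2 over cntrl) is given with its 95% exact counting interval, which covers counting error only. Psen2, which encodes the gamma-secretase subunit presenilin 2, had 0, 0 and 2 counts in cntrl and 185, 138 and 146 counts in shCdk8-2 libraries, a ratio of 212 (58.2 to 1752). Galc, the lysosomal enzyme galactosylceramidase, went from 1, 0 and 2 to 180, 169 and 171 counts (ratio 156, 53.2 to 761). Slc35g2 (ratio 236, 65.0 to 1953) and Cd302 (ratio 207, 36.9 to 8231) had the same pattern. In each of these 4 genes every shCdk8-2 library held many times the counts of any cntrl library. They were named for the largest changes among genes whose groups do not overlap, so this separation was a condition of naming them.

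The reverse was seen for the genes with the largest fall. Dkk2, a secreted Wnt antagonist, was at 5.77, 4.21 and 5.22 CPM in the cntrl libraries and had no count in the shCdk8-2 libraries, at least 34.2-fold lower. Cpne4, a copine, was at 2.58, 2.54 and 2.97 CPM in cntrl and 0 in shCdk8-2 libraries (at least 18.2-fold lower). Csgalnact1, an enzyme of chondroitin sulfate synthesis, fell from 35.5, 34.2 and 36.4 CPM to 0.604, 0.557 and 0.489 CPM, a log2 fold change of -5.98 (SE 0.13, adjusted p = 1.3e-14). Csgalnact1 was thus well expressed in cntrl cells and close to the floor in shCdk8-2 cells. Tent5a, Cacna2d1 and Stox2 kept 1 to 3 counts over the shCdk8-2 group, with ratios of 0.00828 (0.00170 to 0.0244), 0.00722 (0.000181 to 0.0410) and 0.00758 (0.000190 to 0.0431). The atypical cadherin gene Cdh23 (log2 fold change -6.12) and Lilrb4a (-5.70), which encodes an inhibitory receptor of leukocytes, also fell. Ly6g, a granulocyte antigen gene, had a ratio of 0.0170 (0.00347 to 0.0507). Lilrb4a and Ly6g have near-identical relatives, and reads that map to several places were not counted, so their levels are uncertain.

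**Figure D1:**
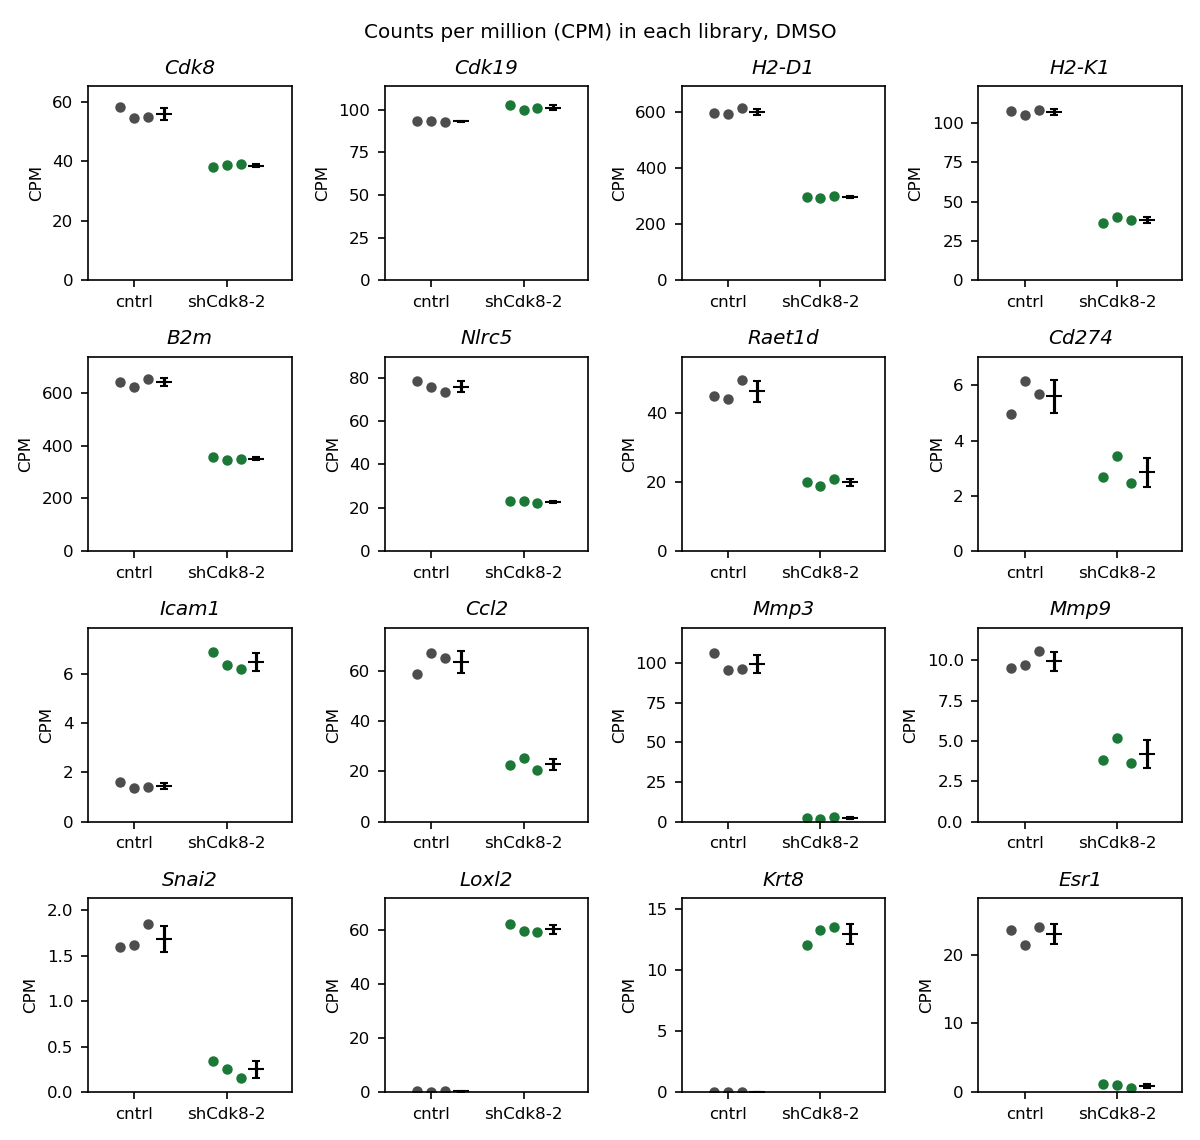
CPM of 16 genes (panels) in each of the 3 cntrl (grey) and 3 shCdk8-2 (green) libraries in DMSO, 1 point per library, with the mean and SD of each group beside the points and vertical axes that start at 0. In every panel the groups lie apart, with Cdk19, Icam1, Loxl2 and Krt8 higher and the other genes lower in shCdk8-2 cells.

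Gene lists were then examined, each by the number of its tested members that passed and by its median log2 fold change, beside the 10.8% of all genes that were called and their median of 0.00. The interferon and STAT list had the most members called higher. Of 44 tested members 14 were called higher and 1 lower, with 26 rising and 9 falling by the adjusted p (median 0.45). The members called higher are antiviral effectors, sensors and regulators that interferon induces. Rtp4 was at 0.613, 0.971 and 0.634 CPM in cntrl and 4.96, 5.52 and 4.13 CPM in shCdk8-2 libraries (log2 fold change 2.71, SE 0.22, adjusted p = 2.6e-08). Oasl2, a relative of the oligoadenylate synthetases, went from 1.41, 1.46 and 1.46 CPM to 6.42, 6.99 and 5.81 CPM (2.15, SE 0.14, adjusted p = 2.2e-09). Ifih1, the RNA sensor MDA5, was at 4.36, 3.94 and 3.90 CPM in cntrl and 10.3, 10.0 and 10.2 CPM in shCdk8-2 libraries (1.33, SE 0.10, adjusted p = 7.7e-09). For all of these the lowest shCdk8-2 library lay well above the highest cntrl library.

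The other members called higher were Mx1 (2.87), Irf7 (1.66), Ifit1 (1.65), Mx2 (1.56), Dhx58 (1.52), Gbp2 (1.504), Usp18 (1.502), Gbp7 (1.22), Xaf1 (1.21), Parp14 (1.18) and Rsad2 (1.04), all as log2 fold changes. Mx1, an antiviral GTPase, remained a low gene, with 0.123, 0.324 and 0.195 CPM in cntrl and 1.60, 1.92 and 1.36 CPM in shCdk8-2 libraries. Irf7, which encodes a regulator of type I interferon genes, was at 1.17, 1.62 and 1.37 CPM and 4.53, 5.32 and 3.31 CPM. Receptor, JAK and STAT genes of the interferon signal were not called. Stat2 (-0.01, adjusted p = 0.885) and Irf1 (0.04, adjusted p = 0.727) did not pass, the receptor gene Ifngr1 fell (-0.42) and Irf9 rose (0.65). Irf8, a transcription factor of the same family that is best known from myeloid cells, fell from 19.4, 18.2 and 19.6 CPM to 1.85, 0.912 and 1.25 CPM (-3.80, SE 0.15, adjusted p = 5.4e-12) and was the only member called lower.

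The promoters of the genes called higher were searched for the core of the interferon-stimulated response element, a motif bound by complexes of STAT and IRF factors, searched as TTTC and TTTC separated by any 2 bases on either strand. RefSeq promoters of 300 bases (250 before and 50 after the start site, GRCm38.p6) were matched for 8 of the 14 genes, and 5 of 8 promoters (62.5%) held the core. In the rest of the interferon list 12 of 36 promoters (33.3%) held it, and of the promoters of all genes tested 2.98% did. Windows of 5 genes are printed to show the shared element, each 5′ to 3′ on the strand of its gene, with the core in capitals.

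Ifit1: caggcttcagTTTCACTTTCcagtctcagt
Gbp2: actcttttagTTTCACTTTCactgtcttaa
Gbp7: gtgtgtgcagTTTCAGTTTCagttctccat
Rsad2: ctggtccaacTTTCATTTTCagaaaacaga
Ifih1: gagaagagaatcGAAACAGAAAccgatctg

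These lie at chr19:34640775-34640804 (plus strand, Ifit1), chr3:142620594-142620623 (plus, Gbp2), chr3:142530273-142530302 (plus, Gbp7), chr12:26456553-26456582 (minus, Rsad2) and chr2:62646206-62646235 (minus, Ifih1). The first base of the core stands at -104, -59, -53 and -120 from the start site in Ifit1, Gbp2, Gbp7 and Rsad2. In Ifih1 it stands at 33, after the start, and reads on the opposite strand. Of the promoters of all genes called higher 5.03% held this core, and of those of all genes called lower 3.99%. Cores of STAT factors, of NF-kB and of the E-box that Snai and Zeb factors bind were also searched. In the interferon list they were in 12.5%, 0% and 25% of promoters of genes called higher and 38.9%, 5.56% and 13.9% of the rest. Among all genes called higher 5.39%, 2.33% and 22.8% of promoters held them, and among those called lower 8.13%, 1.52% and 19.7%. Among all genes tested 6.73%, 1.69% and 17.2% did. A match is a description of these letters and not of a bound factor.

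MHC class I antigen presentation, by which cells display peptides to T cells and restrain NK cells, moved the other way. Of 19 tested members 5 were called lower and none higher, and 11 fell and 3 rose by the adjusted p (median -0.24). The median was -0.37 without cntrl library 3 or without shCdk8-2 library 3. Nlrc5, the transactivator of MHC class I genes, was at 78.8, 75.8 and 73.5 CPM in cntrl and 22.9, 23.2 and 22.3 CPM in shCdk8-2 libraries (log2 fold change -1.73, SE 0.05, adjusted p = 1.7e-13). The class I heavy chain genes fell with it, H2-K1 from 108, 105 and 108 CPM to 36.5, 40.3 and 38.0 CPM and H2-D1 from 597, 592 and 613 CPM to 298, 293 and 299 CPM. H2-D1 (-1.02) was just under 2-fold without cntrl library 3 (-0.995) or with library totals (-0.979). Psmb9, a subunit of the immunoproteasome, was at 7.05, 5.83 and 5.997 CPM and 1.64, 1.47 and 1.63 CPM. In none of these genes did the groups overlap, as in 65.4% of all genes tested. The class I heavy chain genes resemble each other, so their counts hold only reads that map to a single gene.

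B2m, the light chain, fell from 642, 624 and 654 CPM to 357, 345 and 349.7 CPM (-0.87) and the peptide transporter gene Tap1 fell by 0.91 on the log2 scale, both short of the 2-fold threshold. Not all members followed, since the peptide loading genes Tapbp (0.25) and Tapbpl (0.28) rose, as did the proteasome activator gene Psme1 (0.17). The other chaperone genes of the list, Calr, Canx and Pdia3, did not rise. The core of the interferon-stimulated response element was in 0 of 5 promoters of the class I genes called lower and in 3 of 12 (25%) of those of the other tested class I genes, that of B2m among them. In many cells interferon induces its antiviral targets and class I genes together. Here the called members were higher in the interferon list, save Irf8, and lower in the class I list, and members that were not called moved both ways in each list.

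**Figure D2:**
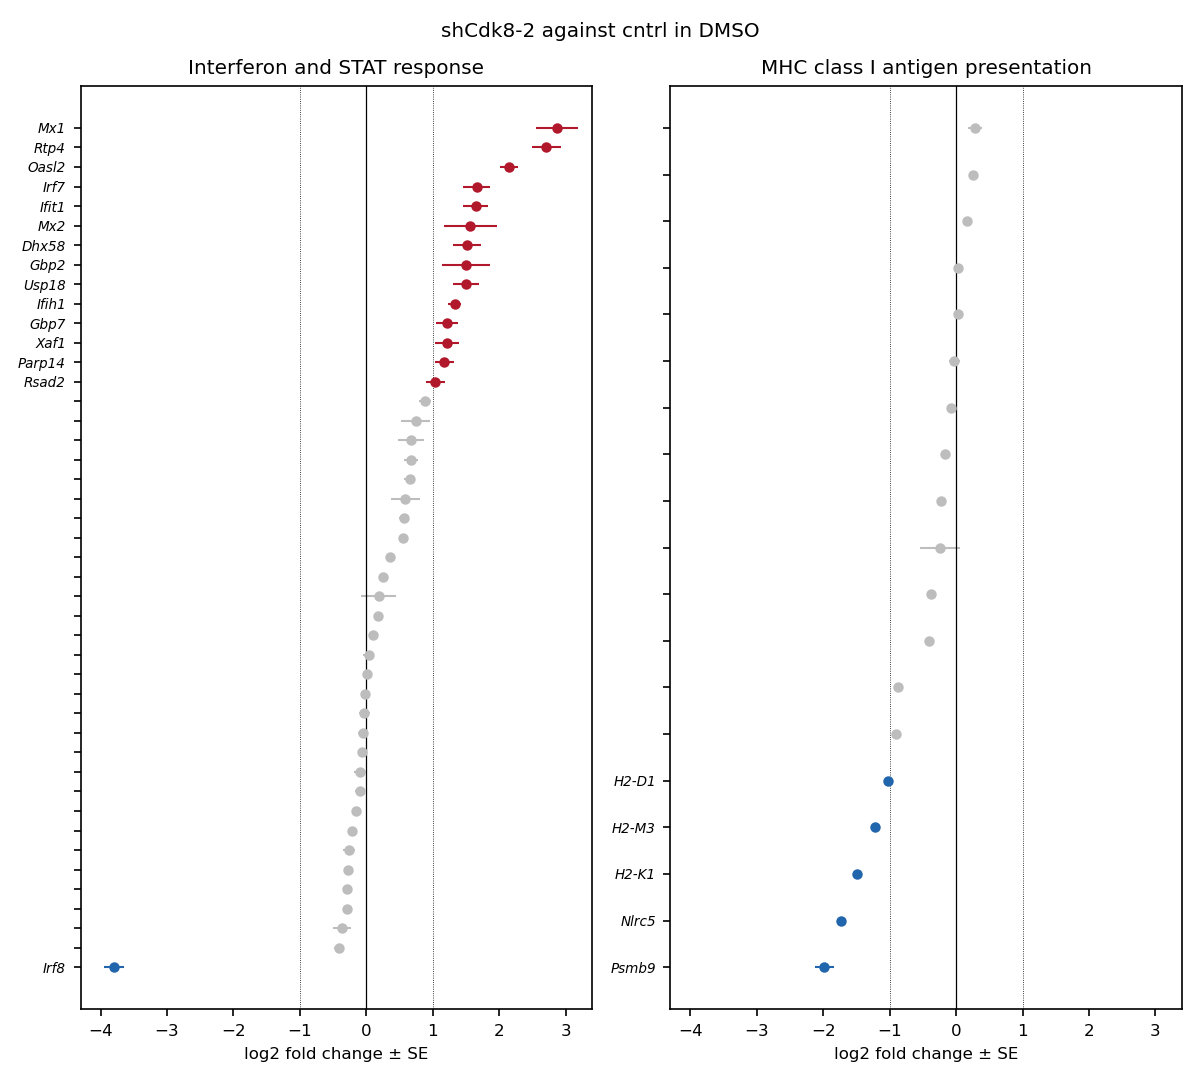
Log2 fold change of each tested member of the interferon and STAT list and of the MHC class I list in shCdk8-2 against cntrl cells in DMSO, with bars for the standard error and dotted lines at a 2-fold change. Members called higher are red, called lower blue (both with their names) and not called grey (without), and the called members lie above 0 in the interferon list, save Irf8, and below 0 in the MHC class I list.

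Ligands by which NK and T cells read tumor cells were mostly lower. Of 18 tested genes 2 were called higher and 4 lower, with 5 rising and 12 falling (median -0.44), and several of them were chosen for this list because the study names them for these libraries. Raet1d and Raet1e encode RAE-1 ligands of the activating NK receptor NKG2D. Raet1d was at 45.0, 44.3 and 49.8 CPM in cntrl and 19.96, 18.9 and 20.98 CPM in shCdk8-2 libraries, and Raet1e had a log2 fold change of -1.06 (SE 0.07). The genes are near-identical, so the split of reads between them is uncertain. Ulbp1, another NKG2D ligand gene, fell by 0.65 on the log2 scale.

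Adhesion ligands of the leukocyte integrin LFA-1 went in opposite directions. Icam1 rose from 1.60, 1.35 and 1.41 CPM to 6.90, 6.38 and 6.19 CPM (2.16, SE 0.17), while Icam2 fell from 1.04, 1.78 and 1.76 CPM to 0.172, 0.203 and 0.326 CPM (-2.73, SE 0.36). Tnfsf10, the death ligand TRAIL, was called higher (1.79, adjusted p = 0.00219) at low counts, 2, 4 and 9 in cntrl and 14, 25 and 19 in shCdk8-2 libraries. Clec2d, a ligand of the inhibitory receptor NKR-P1B, was called lower (-1.38, adjusted p = 3.2e-07). Cd274 (PD-L1), an inhibitor of T cells, was at 4.97, 6.15 and 5.70 CPM in cntrl and 2.67, 3.44 and 2.45 CPM in shCdk8-2 libraries, a log2 fold change of -0.98 that was just under 2-fold and passed it without cntrl library 1 (-1.04), without shCdk8-2 library 2 (-1.13) or with the chromosome median subtracted (-1.21). Cd47 (-0.34) and Pvr (-0.28) fell by less, and Cd276 (0.48) rose. The list therefore held activating and inhibitory ligands among the genes that fell.

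The list of signaling genes of leukocytes was put together for this report. The study reported a changed NK cell pathway but did not discuss these genes by name. Their levels were measured in RNA of whole cultures of the tumor line. A part of other cells in their levels was not tested. Of 21 tested genes 5 were called higher and 6 lower (median -0.21). Syk, a tyrosine kinase downstream of immune receptors, had 1, 1 and 0 counts in cntrl and 6.21, 6.58 and 6.63 CPM in shCdk8-2 libraries, a ratio of 179 (95% exact counting interval 49.1 to 1480). Vav1, a guanine nucleotide exchange factor of hematopoietic cells, was at 7.91, 7.93 and 7.46 CPM in cntrl and 0.302, 0.253 and 0.163 CPM in shCdk8-2 libraries (-4.95, SE 0.22). Inpp5d, the phosphatase SHIP1, fell from 116, 115 and 114 CPM to 25.3, 23.8 and 24.0 CPM (-2.23, SE 0.06, adjusted p = 4.9e-14). The groups did not overlap in these 3 genes, as in 65.4% of all genes tested.

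Plcg2 (1.77), Nfatc2 (1.36) and Cd244a (1.53) were also called higher. Itgb2, the shared chain of leukocyte integrins, fell from 35.9, 29.5 and 31.8 CPM to 8.71, 10.4 and 9.73 CPM, and Was (-2.74), Lcp2 (-1.18) and Shc4 (-1.32) were called lower. Of the leukocyte markers given above, Ptprc had 7 counts or fewer in every library and Cd3e, Cd8a, Ncr1 and Adgre1 at most 1, while Lyz2, Cd14 and Cd68 had 13 or more in every library.

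Chemokines and cytokines had the lowest median of all lists, -1.19 over 18 tested members, of which 9 were called lower and 1 higher. Ccl2 and Ccl7, monocyte attractants, were at 58.6, 67.0 and 65.0 CPM and 36.1, 42.7 and 43.9 CPM in cntrl libraries and at 22.5, 25.2 and 20.7 CPM and 13.02, 14.6 and 15.1 CPM in shCdk8-2 libraries. Cx3cl1 (fractalkine), which attracts cytotoxic lymphocytes, fell from 16.01, 14.8 and 15.1 CPM to 5.30, 5.42 and 4.51 CPM (-1.58, SE 0.08, adjusted p = 1.7e-10). Il15, a growth factor of NK cells, was called lower at 2.27, 2.21 and 2.24 CPM in cntrl against 0.129, 0.304 and 0.217 CPM in shCdk8-2 libraries (-3.36). In these 4 genes, as in 65.4% of all genes tested, the groups did not overlap.

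Il18 (-2.25), Il33 (-1.58), Lif (-1.63), Tnf (-1.29) and Ccl8 (-2.54) were called lower too, and Csf1 fell by 0.72 without being called. Ccl5 (0.81) and Cxcl10 (0.68), chemokines that interferon induces, rose, as did Tgfb3 (0.82). Cxcl16 was the member called higher (1.20, adjusted p = 0.0448) from 0.429, 0.216 and 0.244 CPM in cntrl and 0.388, 0.557 and 1.14 CPM in shCdk8-2 libraries. Its groups overlapped, and the call was lost without shCdk8-2 library 3 (0.68), without cntrl library 2 (1.03) or 3 (1.08) and without shCdk8-2 library 2 (1.31). Without cntrl library 3 the median of the whole list was -0.72.

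The NF-kB and immediate early lists had smaller changes. In the NF-kB pathway 2 of 18 members were called lower and 11 fell (median -0.19), with Traf1 at 21.3, 23.1 and 20.4 CPM in cntrl and 4.40, 6.13 and 4.08 CPM in shCdk8-2 libraries (-2.15) and the inhibitor gene Nfkbie at -1.38. The genes of the NF-kB subunits, Nfkb1 (-0.74), Relb (-0.50) and Rela (-0.14), fell by less than 2-fold. Of 22 immediate early genes, which respond within minutes to growth factors, 14 fell and 3 rose (median -0.35). Klf2 was the only immediate early gene called, at 57.9, 58.3 and 57.6 CPM in cntrl and 24.9, 32.6 and 23.7 CPM in shCdk8-2 libraries (-1.10), and was under 2-fold with the median of its chromosome subtracted (-0.86). Jun (-0.69), Atf3 (-0.81) and Dusp6 (-0.81) fell, while Dusp5 (0.75) and Fosb (0.60) rose.

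Among 25 genes of death receptors and apoptosis, 4 were called lower, none higher, and 14 fell (median -0.10). Pmaip1, which encodes the BH3-only protein NOXA, was at 13.4, 11.7 and 12.1 CPM in cntrl and 1.34, 1.52 and 1.25 CPM in shCdk8-2 libraries (-3.17, SE 0.13, adjusted p = 1.1e-11). Casp1, the inflammatory caspase, fell from 42.3, 42.7 and 45.7 CPM to 13.02, 14.9 and 13.4 CPM, and Casp4 fell by 1.48. Bcl2, which inhibits apoptosis, went from 50.2, 46.1 and 47.9 CPM to 20.5, 21.6 and 21.9 CPM (-1.17). A gene that promotes and a gene that inhibits apoptosis therefore stood among the same 4 genes. Tnfrsf10b, the receptor of TRAIL, rose by 0.54, and Fas gave 0.19 (adjusted p = 0.301).

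**Figure D3:**
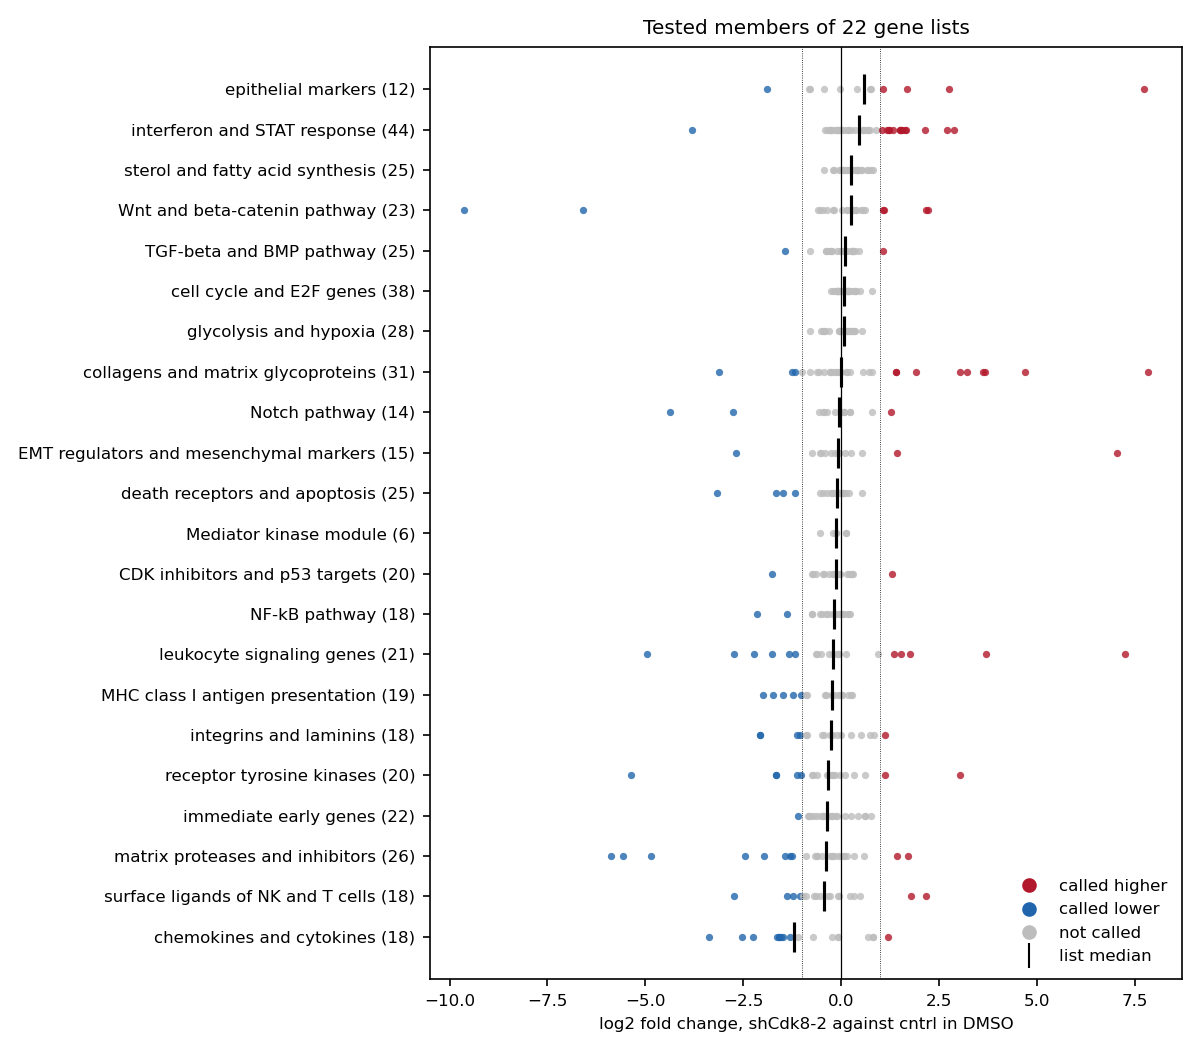
For each gene list, the log2 fold change of every tested member in shCdk8-2 against cntrl cells in DMSO (points, red called higher, blue called lower, grey not called) and the median of the list (black bar), with the number of tested members after each name. Dotted lines mark a 2-fold change, and the medians run from -1.19 for chemokines and cytokines to 0.58 for epithelial markers.

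Epithelial-mesenchymal transition (EMT) is driven by repressors of epithelial genes such as SNAI2. Of 15 tested EMT genes 2 were called higher and 1 lower. Snai2 was at 1.60, 1.62 and 1.85 CPM in cntrl and 0.345, 0.253 and 0.163 CPM in shCdk8-2 libraries (-2.67, SE 0.34, adjusted p = 5.4e-06). Zeb1 (-0.52), Zeb2 (-0.53) and Prrx1 (-0.41) fell by less than 2-fold, Twist1 gave -0.04 (adjusted p = 0.5), and Snai1 rose by 0.25. The regulators of EMT thus differed in direction.

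Loxl2, a lysyl oxidase that crosslinks collagen, had the highest fitted rise among all list members other than those with at most 3 counts over the cntrl group. Loxl2 was at 0.429, 0.324 and 0.585 CPM in cntrl and 62.0, 59.6 and 59.0 CPM in shCdk8-2 libraries (7.04, SE 0.11, adjusted p = 2.3e-16), from near the floor to a well-expressed gene. The adhesion molecule gene Ncam1 rose by 1.44, and Vim, the most abundant member, gave -0.09 (adjusted p = 0.0496).

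Most epithelial genes were at or near 0. Of 38 listed, 26 were not tested, and none of these 26 had more than 10 counts in a library. Of the 12 tested, 4 were called higher and 1 lower (median 0.58). Krt8, a keratin of simple epithelia, had 1, 1 and 1 count in the cntrl libraries and 279, 261 and 249 counts in the shCdk8-2 libraries, a ratio of 237 (95% exact counting interval 80.9 to 1153). Its partner keratin gene Krt18 had at most 1 count in any of the 6 libraries. Jup, the junction protein plakoglobin, rose from 7.55, 8.31 and 7.61 CPM to 52.4, 56.2 and 51.7 CPM (2.77, SE 0.10, adjusted p = 1.8e-12). The transcription factor gene Elf3 (1.69) and the desmosome gene Pkp3 (1.07) were called higher, and the tight junction gene Marveld2 was called lower (-1.90). Cdh1 (E-cadherin) was at 0.123, 0.0540 and 0.244 CPM in cntrl and 0.129, 0.101 and 0.543 CPM in shCdk8-2 libraries and did not pass (adjusted p = 0.444). Single epithelial genes therefore rose in cells in which Epcam, Krt18 and Cdh1 stayed near the floor.

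Genes of the extracellular matrix and its turnover included genes that were far lower and genes that were far higher. Among 26 proteases and inhibitors 8 were called lower and 2 higher (median -0.38). Mmp3 (stromelysin) was at 106, 95.3 and 96.3 CPM in cntrl and 2.07, 1.57 and 2.66 CPM in shCdk8-2 libraries (-5.56, SE 0.13, adjusted p = 2.3e-14). Mmp13 (collagenase 3) fell from 12.6, 11.4 and 9.12 CPM to 0.172, 0.203 and 0.163 CPM (-5.89), and Mmp10 gave -4.84. These secreted metalloproteases degrade matrix proteins. In Mmp3 and Mmp13 the groups did not overlap, as in 65.4% of all genes tested.

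Mmp9 (gelatinase B) fell from 9.51, 9.71 and 10.6 CPM to 3.79, 5.22 and 3.64 CPM, and Plat, the tissue plasminogen activator, from 37.1, 39.8 and 41.6 CPM to 15.2, 14.5 and 13.9 CPM. Adam8 (-1.97), Adam19 (-2.46) and Adamts12 (-1.30) were also called lower. Against this direction Mmp2 (gelatinase A) rose from 13.6, 11.9 and 13.8 CPM to 43.0, 41.6 and 44.1 CPM (1.72, SE 0.07, adjusted p = 1.8e-11) and Mmp28 by 1.43. The gelatinase genes Mmp2 and Mmp9 thus moved apart, and of the inhibitors Timp1 gave -0.01 (adjusted p = 0.947) and Timp2 -0.16 (adjusted p = 8.5e-04).

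Among 31 collagens and matrix glycoproteins 9 were called higher and 3 lower, against 4.75% and 6.08% of all genes. Thbs2, an antiangiogenic thrombospondin, was at 1.60, 2.81 and 2.15 CPM in cntrl and 59.0, 56.9 and 57.0 CPM in shCdk8-2 libraries, and Thbs1 had 0, 2 and 1 counts in cntrl and 24, 9 and 13 counts in shCdk8-2 libraries (ratio 13.8, 4.45 to 69.5). Tgfbi, a matrix protein that TGF-beta induces, went from 17.5, 21.3 and 21.5 CPM to 186, 195 and 183 CPM (3.22, SE 0.06, adjusted p = 3.4e-15). Col1a1, the main chain of collagen I, was at 0.920, 0.971 and 0.439 CPM and 10.6, 9.73 and 9.18 CPM. The 4 genes were low or moderate in cntrl and higher in each shCdk8-2 library.

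Col5a2 (3.03), Bgn (1.91), Fbn1 (1.41) and Col12a1 (1.39) were called higher as well. Matn2 had no count in cntrl libraries and 1.29, 1.57 and 1.52 CPM in shCdk8-2 libraries, at least 8.91-fold higher against the floor. Col8a1 (-3.12), Tnc, which encodes tenascin C (-1.25), and Col6a3 (-1.17) were called lower, and the chains of basement membrane collagen IV, Col4a1 (-0.56) and Col4a2 (-0.79), fell by less. Chains of collagen VI differed in direction, since Col6a1 (0.24) and Col6a2 (0.71) rose.

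Among receptors for the matrix and their laminin ligands, of 18 integrin and laminin genes 4 were called lower and 1 higher, and 10 fell and 5 rose (median -0.26). With only the groups compared, or with more than 1 CPM in 3 libraries, 2 were called lower. Itgb7, which pairs with the alpha 4 or alpha E chain, fell from 80.0, 82.8 and 86.4 CPM to 19.1, 21.8 and 18.9 CPM (-2.06, SE 0.06, adjusted p = 1.1e-13). The collagen receptor chain gene Itga1 (-1.04), Itga8 (-1.13) and the laminin chain gene Lama3 (-2.06) were called lower. Itgb4, a laminin receptor chain of hemidesmosomes, was called higher (1.13).

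Growth factor receptors fell more often than they rose. Of 20 receptor tyrosine kinase genes tested 5 were called lower and 2 higher, and 13 fell (median -0.32). Egfr was at 115, 117 and 118 CPM in cntrl and 36.2, 38.9 and 36.3 CPM in shCdk8-2 libraries (-1.65, SE 0.09, adjusted p = 5.1e-10). Met, the receptor of hepatocyte growth factor, fell from 537, 535 and 568 CPM to 265, 267 and 270.2 CPM (-1.03, SE 0.06), and was just under 2-fold with library totals, without cntrl library 3 or with the chromosome median subtracted (-0.996 to -0.993). Mst1r, which encodes the MET relative RON, rose from 0.0613, 0.162 and 0.0488 CPM to 0.819, 0.507 and 1.03 CPM (3.03). The related receptors MET and RON thus had opposite directions, at very different levels.

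Ntrk3 (ratio 0.0203, 0.00242 to 0.0754), Fgfr3 (-1.67) and Mertk (-1.12) were called lower, and the collagen receptor gene Ddr1 was called higher (1.12). Fgfr1 (-0.75) and Pdgfrb (-0.71) fell without being called.

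Of the developmental pathways, Wnt had 4 of 23 tested members called higher and 2 lower (median 0.25). The ligand genes Wnt10b (2.21) and Wnt6 (2.18) rose, Wnt10b from 3.13, 4.16 and 2.78 CPM to 15.3, 15.9 and 15.3 CPM, and so did the receptor gene Fzd2 (1.06) and the transcription factor gene Tcf7 (1.09). Wnt3 was at 0.552, 0.540 and 0.731 CPM in cntrl and had no count in shCdk8-2 libraries (at least 4.10-fold lower). Together with Dkk2, which is described above, the secreted Wnt proteins and their antagonist included genes that rose and genes with no count in shCdk8-2 cells. Ctnnb1, which encodes beta-catenin, rose by 0.25. Of the target genes Myc rose by 0.61, Ccnd1 fell by 0.37, and Axin2 gave 0.04 (adjusted p = 0.794).

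In the TGF-beta and BMP pathway Tgfbr2, the type II receptor, fell from 94.7, 88.7 and 94.9 CPM to 33.2, 35.7 and 34.6 CPM (-1.43, SE 0.05, adjusted p = 6.5e-13). Smad9 was the only member called higher (1.07), a call that was lost without cntrl library 1 (0.84) or without shCdk8-2 library 3 (0.98), and the list's median was 0.09 over 25 members. In the Notch pathway 2 of 14 members were called lower and 1 higher (median -0.04). The ligand gene Dll1 fell from 16.1, 14.6 and 13.5 CPM to 1.98, 2.03 and 2.5 CPM (-2.77) and the receptor gene Notch4 gave -4.37, while the glycosyltransferase gene Mfng (1.28) and the target gene Hes1 (0.79) rose.

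Cell cycle genes changed little. None of 38 cell cycle and E2F genes was called, and 17 rose and 4 fell by the adjusted p (median 0.08). Ccne1 (cyclin E1) had the lowest p, with 53.7, 54.2 and 57.3 CPM in cntrl and 93.3, 96.9 and 95.9 CPM in shCdk8-2 libraries (0.79, SE 0.04, adjusted p = 2.0e-10). The helicase gene Mcm4 (0.39) and the nucleotide reductase gene Rrm2 (0.36) rose, and the proliferation marker Mki67 gave -0.06 (adjusted p = 0.737). Among 20 genes of CDK inhibitors and p53 targets, Cdkn1c was called higher (1.31, adjusted p = 0.00201) and Eda2r lower (-1.77, adjusted p = 0.00195). Of the 20 genes 10 fell and 4 rose by the adjusted p. Among those that fell were Mdm2 (-0.47) and Gadd45a (-0.64), while Cdkn1a (p21) gave -0.10 (adjusted p = 0.0891).

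Of 25 genes of sterol and fatty acid synthesis 16 rose and 3 fell, none past 2-fold (median 0.27). Hmgcs1, an early enzyme of cholesterol synthesis, was at 127, 121 and 127 CPM in cntrl and 226, 212 and 217 CPM in shCdk8-2 libraries (0.81, SE 0.04, adjusted p = 6.2e-11). Fdft1 (0.76), Lss (0.69) and Cyp51 (0.67), later enzymes of the same route, rose too. Of 28 genes of glycolysis and hypoxia none was called, 8 rose and 6 fell. Pfkp (0.54) had the lowest p of these, and Car9 fell by 0.79.

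Fold changes also differed between chromosomes. The median log2 fold change of the tested genes was 0.34 on chromosome 12, 0.31 on chromosome 16 and 0.23 on chromosome 19, and it was -0.24 on chromosome 8 and -0.34 on chromosome 18, while the other chromosomes lay within 0.10 of 0. On chromosome 12, 82.3% of the tested genes were higher in shCdk8-2 cells, and on chromosome 18 14.9% were. All 3 shCdk8-2 libraries shared these shifts, with chromosome medians of 0.31 to 0.32 for chromosome 12 and -0.35 to -0.33 for chromosome 18 against the cntrl mean. Cdk8 lies on chromosome 5, whose median was 0.00.

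In shCdk8-1 against cntrl, which shares the cntrl libraries, the medians were 0.28 on chromosome 12, 0.26 on chromosome 16, 0.05 on chromosome 19, -0.21 on chromosome 8, -0.34 on chromosome 18 and 0.11 on chromosome 10. Between the knockdown lines (shCdk8-2 against shCdk8-1) they were 0.18 on chromosome 19 and -0.14 on chromosome 10, and within 0.08 of 0 on the other chromosomes. In cntrl cells the medians of SnxB against DMSO lay within 0.02 of 0 on every chromosome. When 20 adjacent genes were taken at a time along each chromosome (those averaging 2 CPM or more), the lowest median was -1.01 at chr9:30942562-36767679, where 19 of 20 genes were lower, and the highest was 0.73 at chr12:84970897-87164721, where 1 of 20 was lower. The middle 95% of 10117 windows lay between -0.39 and 0.40. DNA copy number was not measured here, and its part in these shifts was not tested.

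**Figure D4:**
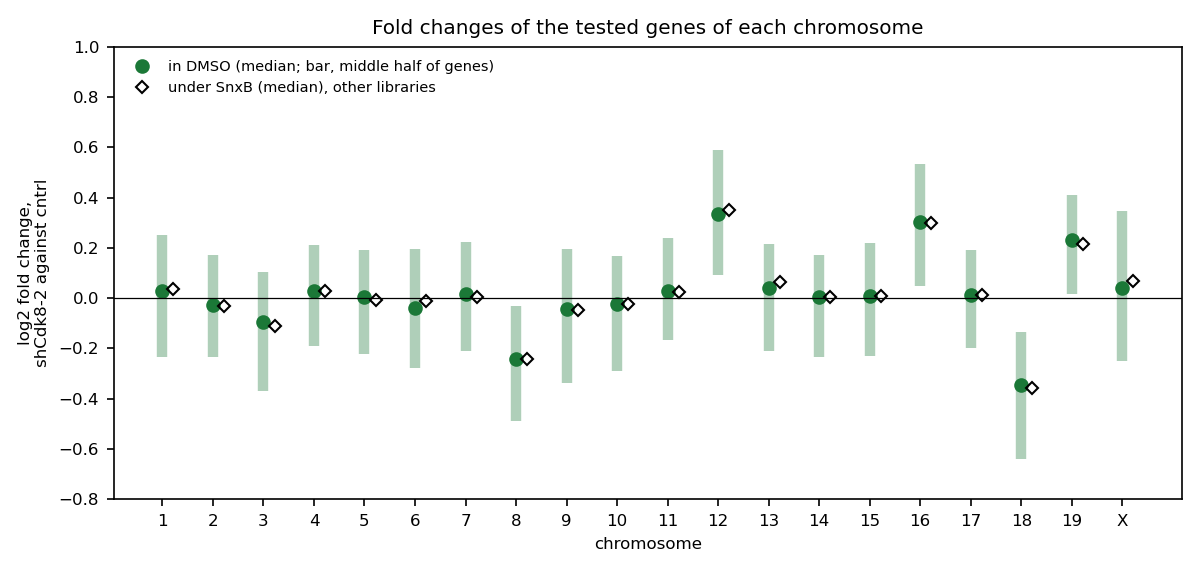
Median log2 fold change of the tested genes of each chromosome in shCdk8-2 against cntrl cells in DMSO, (points) with bars from the lower to the upper quartile of genes, and the median of shCdk8-2 against cntrl under SnxB, from other libraries (diamonds). Chromosomes 12, 16 and 19 lie above 0 and chromosomes 8 and 18 below 0 in both.

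The comparison was also available under SnxB, in 3 shCdk8-2 and 3 cntrl libraries that share none with the DMSO comparison but come from the same lines. There 1379 of 12772 genes were called (10.8%), 644 higher and 735 lower. The fits that set the spread between libraries did share libraries. That in DMSO held the cntrl libraries in SnxB, and that under SnxB held all 18 libraries. Fitted to only the groups compared, 1235 genes were called in DMSO and 1211 under SnxB. Of 1359 genes called in DMSO and tested under SnxB, 1150 were called in the same direction, which was 84.6% of the DMSO calls and 86.9% of the 1324 SnxB calls among genes tested in both, and 0 were called in the opposite direction. Across 12577 genes the log2 fold changes of the comparisons correlated with Pearson's r of 0.948 and Spearman's rho of 0.894, a description over genes, which are not independent replicates.

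The levels of single genes are given for 3 examples. Nlrc5 was at 77.0, 71.3 and 77.1 CPM in cntrl and 20.7, 23.3 and 19.6 CPM in shCdk8-2 libraries under SnxB (-1.82, adjusted p = 2.0e-13), Loxl2 at 0.711, 0.696 and 1.03 CPM and 70.1, 69.0 and 68.9 CPM (6.41), and Mmp3 at 76.0, 71.9 and 66.7 CPM and 1.13, 1.08 and 1.60 CPM (-5.82). All 14 interferon genes called higher in DMSO were called higher under SnxB, and 4 of the 5 MHC class I genes called lower in DMSO were called lower there. Of the genes called higher in DMSO, 3 of 5 leukocyte signaling genes and 3 of 4 Wnt genes were called higher under SnxB, while Itgb4 and Cdkn1c were not. All 9 chemokine and cytokine genes called lower in DMSO were called lower there. Of all DMSO calls 84.6% were called under SnxB, and the lists hold too few called genes to be set apart from this share. The groups did not overlap in any of the 3 examples, which were taken from genes called in DMSO.

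Whether the effect of shCdk8-2 differed between DMSO and SnxB was tested by the interaction. It called 2 of 12772 genes (0.0157%), and 7 genes passed the adjusted p alone (748 had an unadjusted p under 0.05). Acta2, which encodes smooth muscle actin, had the lowest p. In DMSO it was at 133, 148 and 145 CPM in cntrl and 207, 216 and 202 CPM in shCdk8-2 libraries, and under SnxB at 421, 426 and 409.9 CPM and 425, 424 and 415 CPM (interaction -0.55 on the log2 scale, SE 0.06, adjusted p = 6.8e-04). The lines thus differed in DMSO and overlapped under SnxB. The genes called were Ppp1r16b (1.71, adjusted p = 0.0304) and Atp6v0a4 (-1.46, adjusted p = 0.0232), and neither call was stable to leaving out single libraries. That of Ppp1r16b held only without cntrl DMSO library 3, cntrl SnxB library 2 or shCdk8-2 SnxB library 2, and was lost without any of the other 9 (1.47 to 1.79). That of Atp6v0a4 held only without cntrl SnxB library 2, shCdk8-2 DMSO library 3 or shCdk8-2 SnxB library 2, and was lost without any of the other 9 (-1.48 to -1.36).

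**Figure D5:**
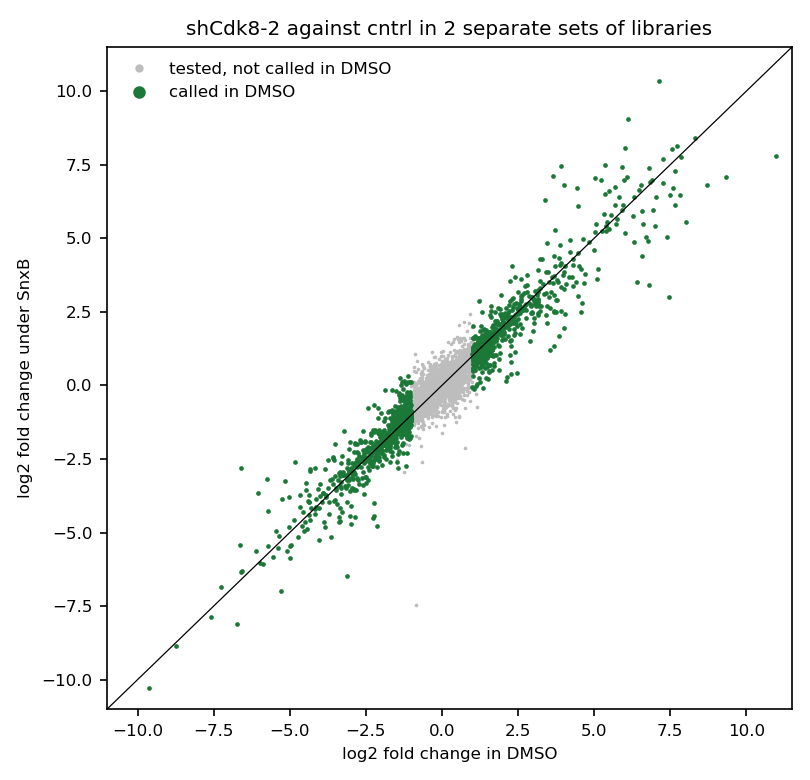
Log2 fold change of shCdk8-2 against cntrl for each gene in DMSO (horizontal axis) and under SnxB (vertical axis), from libraries that the comparisons do not share, with the line of equal change. Green points are genes called in DMSO, 1345 of 1359 of which have the same sign under SnxB.

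Against the inhibitor, shCdk8-2 cells in DMSO were compared with cntrl cells in SnxB, that is, the knockdown against the inhibitor of the kinase. Of 12590 genes 1330 were called (10.6%), 607 higher and 723 lower. Nr5a1, Krt8, Galc, Hhipl1 and Cfap97d2 were the genes with the largest rise, and Dkk2, Cpne4, Tent5a, Csgalnact1 and Ly6g those with the largest fall. Hmgcs1 (0.72), Nlrc5 (-1.71) and Icam1 (2.14) had log2 differences close to those against cntrl in DMSO, with which this comparison shares the shCdk8-2 libraries.

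The knockdown lines differed less from each other. Of 12590 genes 261 were called between shCdk8-2 and shCdk8-1 cells in DMSO (2.07%), 173 higher and 88 lower in shCdk8-2, and 2766 passed the adjusted p. Pmaip1 was at 0, 0.113 and 0.0514 CPM in shCdk8-1 cells, 3 counts over the group, below the shCdk8-2 libraries given above (adjusted p = 1.7e-06). Dab1, which had no count in shCdk8-1 libraries, Psd4 (5.85), Itih2 (5.27), Gimap6 (4.45) and Fam167b (4.28) were the genes with the largest difference upward. Thbs1 was at 5.08, 6.40 and 6.32 CPM in shCdk8-1 libraries (-2.97, adjusted p = 1.2e-07), above both other groups, and Sox6 (-2.77), Aldh1l1 (-2.40), Ppargc1a (-2.23) and Hephl1 (-2.20) were lower in shCdk8-2 cells as well.

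The same lists were set beside this. Of all 12590 genes 2.07% were called between the lines and 2766 passed the adjusted p. None of the 44 interferon genes was called, which says little at so low a share, and 4 passed the adjusted p. Of 25 sterol and fatty acid genes, by contrast, 23 passed it, none beyond 2-fold, with a median of -0.28, so that most of these genes stood lower in shCdk8-2 than in shCdk8-1 cells. Hmgcs1 was at 247, 250.1 and 244 CPM in shCdk8-1 libraries (-0.18, adjusted p = 0.0029). Chemokines and cytokines had a median of 0.44 between the lines, with Ccl2 at 15.8, 16.8 and 15.2 CPM (0.52, adjusted p = 5.0e-04) and Cx3cl1 at 3.27, 2.95 and 2.93 CPM in shCdk8-1 libraries (0.74, adjusted p = 1.7e-04). Ccl2 was lower in both knockdown lines than in cntrl, and H2-K1, at 59.6, 55.6 and 61.4 CPM in shCdk8-1 libraries, was too. Esr1 was at 1.17, 1.53 and 1.03 CPM in shCdk8-1 libraries and did not differ past the threshold between the knockdown lines (-0.36, adjusted p = 0.425).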

How the data were processed

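RNA-seq libraries of E0771 cells were prepared by the authors with 3 libraries in each of 6 groups and sequenced as 50 bp single-end reads. Per the labels, the file headers and the methods, reads were trimmed with Trimmomatic, mapped with STAR (GRCm38, GENCODE M13) and counted by strand on exons with featureCounts, without reads that map to several places. The values deposited by the authors are these read counts per gene, with no normalization. In the headers of the shCdk8-2 files the replicates are numbered 2, 3 and 3, where the labels, which were followed, have 1, 2 and 3. Symbols were paired with 50376 of 50686 genes through GENCODE M21.

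Counts were tested with edgeR 4.0.16 in R 4.3.3 (filterByExpr with min.count 10 and min.total.count 15, TMM, glmQLFit and glmQLFTest, Benjamini-Hochberg adjustment). The comparisons of libraries in DMSO, with cntrl cells in SnxB, were fitted to 12 libraries (12590 genes), and the comparison under SnxB and the interaction to 18 libraries (12772 genes). A gene was called at an adjusted p under 0.05 and a change of more than 2-fold. Folds against a group at 0 are bounds at 3 counts per library, and medians of lists were the same with such genes at their bounds. The comparison, the gene lists and the rule for named genes were chosen with earlier results of these data known. Named by rule were the kinase module, 8 genes the study names for these libraries, the 10 genes with the largest change in each direction (mean of at least 1 CPM, no overlap, no predicted-gene name), the 3 called members of each list with the lowest p in each direction (or the member with the lowest p where none was called), and in the other comparisons the 5 largest in each direction. Other genes were named after their values were seen, and some members of the lists are not reported here by name.

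Promoters were read from a RefSeq table of GRCm38.p6. On simulated counts for shCdk8-2 against cntrl in DMSO (12373 genes), the test recovered 192 of 200 changed genes with 1 false call. For the interaction (12531 genes) it recovered 183 of 200 with 1 false call. With the adjusted p alone, 8 and 12 unchanged genes passed. Every recovered gene was also called, and recovery at less than 2-fold was not tested. Alternatives were DESeq2 1.42.0, its size factors, library totals, the likelihood ratio test, glmTreat, other filters and thresholds, only the groups compared or all 18 libraries, a replicate block, each library left out in turn, and, added after the data were seen, the chromosome median subtracted. Figures were drawn with matplotlib 3.10.9. Data of the study other than RNA-seq counts were not analysed here.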

Additional observations from a re-analysis of the deposited data

Results flagged for a closer look

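The effect of shCdk8-2 differed between SnxB and DMSO in 7 genes, by the interaction in edgeR's quasi-likelihood test over 12772 genes (adjusted p under 0.05). Values are the log2 effect under SnxB minus that in DMSO. Acta2, a smooth muscle actin gene, had -0.5454 (adjusted p = 6.8e-04). In the cntrl line Acta2 went from 133, 148 and 145 CPM in DMSO to 421, 426 and 409.9 CPM under SnxB, while in shCdk8-2 cells it went from 207, 216 and 202 CPM to 425, 424 and 415 CPM. Under SnxB the groups of the lines overlapped.

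Atp6v0a4, a subunit of the vacuolar proton pump, had -1.456 (adjusted p = 0.0232) from low levels, at 0.739, 0.759 and 0.784 CPM in cntrl and 3.74, 3.98 and 3.29 CPM in shCdk8-2 cells in DMSO and at 2.84, 2.46 and 2.97 CPM and 4.29, 5.24 and 4.96 CPM under SnxB. Ppp1r16b, a regulatory subunit of protein phosphatase 1, had 1.71 (adjusted p = 0.0304), at 4.19, 3.52 and 2.74 CPM and 0.827, 0.970 and 1.04 CPM in DMSO and at 2.41, 2.41 and 2.56 CPM and 2.81, 1.54 and 2.19 CPM under SnxB. Each call was lost without any of 9 of the 12 libraries, at -1.48 to -1.36 and 1.47 to 1.79.

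The other genes differed by less than 2-fold. The carbonyl reductase gene Cbr2 had -0.5076 (adjusted p = 0.0177), the growth factor gene Ereg (epiregulin) -0.4262 (adjusted p = 0.0304), Gas7 -0.3667 (adjusted p = 0.0371) and Pgbd5 -0.3092 (adjusted p = 0.0407).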

How the results depend on the processing

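The count of genes called in shCdk8-2 against cntrl in DMSO (1364) lay between 1101 (more than 1 CPM in 3 libraries) and 1730 (no filter) under DESeq2, other scaling, filters, fits and an adjusted p under 0.01, and at 1360 to 1390 with each library left out. DESeq2 called 1318, library totals 1355 and the chromosome median subtracted 1308. The count moved by more than 1.5 times with other fold rules, whose construction sets it. glmTreat, which tests against 2-fold, called 829 (361 higher, 468 lower), and the adjusted p alone 7322 (3612 and 3710). Against shCdk8-1 these gave 69 (50, 19) and 2766 (1428, 1338), against cntrl in SnxB 814 (357, 457) and 7268 (3561, 3707), and under SnxB 834 (374, 460) and 7236 (3588, 3648). No named gene changed direction. Of the list medians, that of collagens and matrix glycoproteins (0.002898) changed sign, to -0.0005113 with only the groups compared and to -0.02448 with the chromosome median subtracted.

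The interaction was the least stable. Its 2 calls became 0 with glmTreat (0 higher, 0 lower) or an adjusted p under 0.01 (0 and 0), 7 with no fold threshold (6 lower), 1 with only the groups compared (0 higher), 9 with no filter (8 lower), and 2 lower with DESeq2 or the likelihood ratio test. With libraries left out it lay between 0 and 4 (0 to 1 higher, 0 to 3 lower). The cause was not tested.

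List medians that moved by more than the spread between libraries are given by setting. With library totals they were -0.08169 (kinase module), -0.2015 (MHC class I), 0.4912 (interferon), -0.2214 (integrins), 0.1217 (cell cycle), -0.08336 (CDK inhibitors) and 0.3067 (sterol). With no filter they were -0.3101 (MHC class I), 0.5489 (interferon), -0.1836 (NK and T ligands), -0.5222 (chemokines), 0.0 (epithelial), -0.1111 (integrins), 0.3297 (Wnt), -0.2619 (immediate early), -0.2347 (receptor kinases) and -0.1501 (Notch). With more than 1 CPM in 3 libraries they were -0.3062 (MHC class I), 0.3517 (interferon), -1.483 (chemokines), -0.2857 (proteases) and -0.2911 (immediate early). With only the groups compared they were -1.469 (chemokines), 0.4296 (epithelial), -0.2719 (proteases) and -0.2243 (integrins), and with all 18 libraries -0.329 (NK and T ligands), -1.285 (chemokines) and 0.7444 (epithelial). With the chromosome median subtracted they were -0.1538 (kinase module), -0.1478 (MHC class I), 0.5093 (interferon), -0.5598 (NK and T ligands), 0.323 (epithelial), 0.1464 (Wnt), -0.2717 (immediate early), -0.3619 (NF-kB), 0.2321 (sterol) and 0.03324 (glycolysis). With each library left out the medians ran from -0.145 to -0.08494 (kinase module), -0.3744 to -0.2269 (MHC class I), -1.162 to -0.7237 (chemokines), 0.5361 to 0.8344 (epithelial) and -0.1497 to -0.06538 (CDK inhibitors).

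Under the replicate block the 94 genes named in DMSO kept their side of the adjusted p (92 under 0.05), and the 84 called among them were called, which called 1363 genes (597 higher, 766 lower). The replicate numbers did not pair the libraries, since deviations of same-numbered libraries correlated at -0.0289, -0.00175 and 0.014, so the block was not used. Leaving out cntrl library 2 or 3 or shCdk8-2 library 1 or 2 lost the adjusted p of Ccnc, and that of Cxcl16 was lost in DESeq2, with all 18 libraries and without cntrl library 2 or 3 or shCdk8-2 library 2 or 3. Counts of called members moved by more than 1.5 times in few lists beside those of the report. With more than 1 CPM in 3 libraries Wnt had 1 called lower and CDK inhibitors 0, and with this filter or only the groups compared receptor kinases had 1 called higher. With no filter TGF-beta had 2 called higher, and without shCdk8-2 library 1 glycolysis had 1 called lower. Itga1 was just under 2-fold with library totals (-0.9993). Genes at 3 counts or fewer cannot be told from 0 at 0.132 to 0.182 CPM.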
